A study of Mus musculus with 8 samples.

Results

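The unfolded protein response and the ATF4 amino acid response were followed in mpkCCD cells across 37 genes, picked by their official symbols in the deposited table of 55414 genes. Of the 37, 25 belong to the XBP1 and ATF6 arm (3 stress sensors with the factor Xbp1, 11 folding genes, 8 genes of ER-associated degradation and 2 of the translocon) and 12 to the ATF4 arm (6 transcription factors and regulators and 6 genes of amino acid synthesis). A gene was tested where its highest value over the 8 libraries passed 10 transcripts per 1000000 (TPM), which 9943 genes and 36 of the 37 members did. The remaining member was the sensor gene Ern1. Eif2ak3, a sensor gene whose product acts on Atf4 translation, was counted with the other sensors in the XBP1 and ATF6 arm. Ddit3 has a second row in the table, at 0 in all libraries, which was left aside.

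The mpkCCD line is a mouse cortical collecting duct line that carries endogenous V2 vasopressin receptors. It derives from SV-PK/Tag transgenic mice, and the study grew a recloned subline of it on permeable supports. In the tolvaptan group (4 libraries), cells received 50 nM tolvaptan, a V2 receptor antagonist, for 24 h on top of 0.1 nM dDAVP, a V2-selective agonist. In the dDAVP alone group (4 libraries), cells received the vehicle for 24 h with the same 0.1 nM dDAVP, so that both groups carried the agonist and no library came from cells without it. Each library gave 1 TPM value a gene, a share of the library's RNA corrected for transcript length, so that a lower value may mean less RNA per cell or fewer cells that express the gene, which cannot be told apart here.

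Secreted and membrane proteins, aquaporins and the V2 receptor among them, are folded in the endoplasmic reticulum (ER). When unfolded proteins accumulate there, 3 sensors in the ER membrane respond. IRE1, encoded by Ern1, splices the Xbp1 mRNA so that it yields an active transcription factor. ATF6 is cut in the Golgi to release a transcription factor. PERK, encoded by Eif2ak3, phosphorylates the initiation factor eIF2, which slows translation in general but favours that of the Atf4 mRNA. XBP1 and ATF6 raise genes of folding, translocation and degradation, and ATF4, which is also reached from amino acid shortage through the kinase GCN2, raises genes of amino acid synthesis, transport and tRNA charging. The values below are mRNA levels per gene. They do not separate spliced from unspliced Xbp1 mRNA and do not measure the cutting of ATF6, the phosphorylation of eIF2 or the translation of Atf4.

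Under tolvaptan, 7 of the 36 members tested fell and none (0) rose, with an adjusted p of 0.05 in limma as the threshold. The 7 were Xbp1, Herpud1 and Canx of the XBP1 and ATF6 arm and Sesn2, Psat1, Asns and Mthfd2 of the ATF4 arm. The falls were small, between 13.5% and 28.3% of the mean under dDAVP alone. They make up 19.4% of the members tested, where 6.10% of all 9943 genes tested were lower, and the 0 members that rose stand beside 10% of all genes. By mean TPM, the 7 lay between percentiles 51.2 (Sesn2) and 96.7 (Canx) of the genes tested. The shares were not matched for level, and small changes may be called more easily in genes of high level. At an unadjusted p under 0.05 in limma, 8 members were lower, beside 9.92% of all genes, and 2 higher (Phgdh and Derl3), beside 21.0% of all genes. Derl3 entered the test only through tolvaptan replicate 4, which favours a higher value under tolvaptan, so its count among the higher is no support. The alternative fits called between 0 and 1 member higher. Over all genes the balance moved with the scaling: 607 were lower and 994 higher as deposited, 825 and 576 with libraries brought to a common median, and 680 and 612 after quantile normalization. Members lower and higher were 8 and 0 with a common median and 6 and 1 after quantile normalization. The median log2 fold change was -0.04 over the members and 0.05 over all genes tested. Every tolvaptan library lay below every library under dDAVP alone for 8 members, against 7.99% of all genes, and above for 1 member, against 15.1% of all genes.

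By arm, 3 of 24 genes of the XBP1 and ATF6 arm fell (12.5%, median log2 fold change -0.04) and 4 of 12 genes of the ATF4 arm (33.3%, median -0.06). Over all genes tested, 6.10% fell and the median was 0.05. No difference between the arms was tested. Summed over its genes, the XBP1 and ATF6 arm took 4640 to 4735 TPM in the tolvaptan libraries and 4933 to 5209 TPM under dDAVP alone. These ranges do not overlap, with means of 4680 and 5018 TPM, but no test was made. The sums include the genes that fell, Xbp1 (means 256 and 352 TPM), Canx (404 and 466 TPM) and Herpud1 (257 and 306 TPM). The other 21 of the 24 genes tested did not pass. The sums of the ATF4 arm, 1824 to 2087 TPM under tolvaptan and 1973 to 2097 TPM under dDAVP alone, overlapped. For the 29 members that did not pass the test, the 95% intervals of the log2 fold change lay between -0.48 and 0.66, and the widest were those of Trib3, Derl3 and Hyou1, as the plot of fold changes by role shows.

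**Figure D1:**
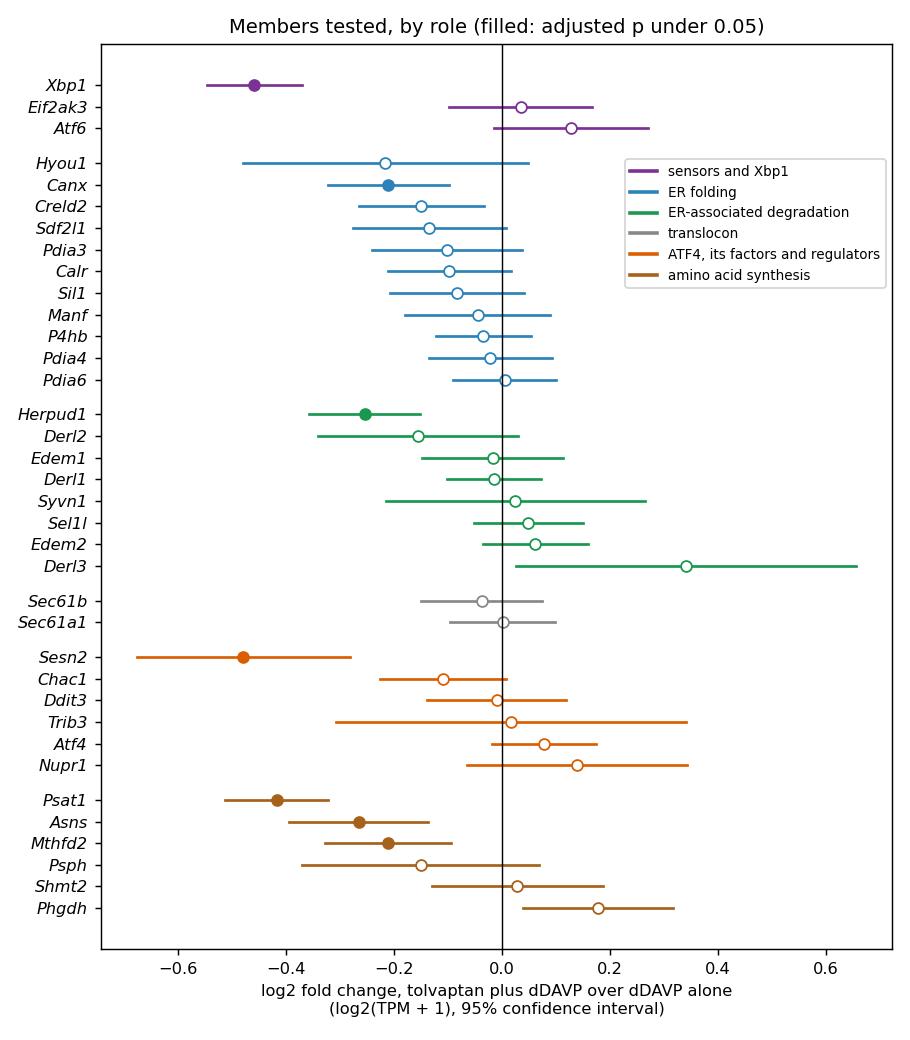
Log2 fold change (horizontal axis, on log2(TPM + 1)) of the 36 members tested, tolvaptan plus dDAVP over dDAVP alone, with 95% confidence intervals from limma, arranged by role; filled points passed an adjusted p of 0.05. The 7 filled points all lie below 0, and Ddit3, Pdia6 and Sec61a1 are among the genes nearest 0.

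Among the sensors and their first target, only Xbp1 passed the test. Xbp1 stood at 254, 245, 260.0 and 266 TPM in the tolvaptan libraries, against 358, 356, 342 and 352 TPM under dDAVP alone. The gap between the groups was many times the spread within either. The means were 256 ± 8.99 and 352 ± 6.93 TPM (± SD, n = 4 libraries each), a fall of 27.3% (log2 fold change -0.46, standard error (SE) 0.04, adjusted p = 4.42e-05 in limma), and the gene passed in 18 of 18 alternative fits. Its level relative to Hspa5, the ER chaperone BiP and a textbook target of ATF6, was 0.271 to 0.282 under tolvaptan and 0.365 to 0.390 under dDAVP alone. This ratio and those below were picked after the values were seen. Each sets a gene that fell over a gene that did not pass, so they describe the same values and add no support.

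The sensors themselves gave no call. Atf6 was at 19.6, 18.7, 18.3 and 17.2 TPM under tolvaptan and 17.0, 17.6, 16.6 and 16.0 TPM under dDAVP alone, and the groups overlapped. Its log2 fold change was 0.13, with a 95% interval from -0.02 to 0.27. Eif2ak3, the PERK gene, was at 17.9, 19.2, 18.6 and 18.0 TPM under tolvaptan and 18.8, 18.3, 17.6 and 17.2 TPM under dDAVP alone, also overlapping (log2 fold change 0.03, 95% interval -0.10 to 0.17). Ern1, the gene of the enzyme that splices Xbp1 mRNA, was the member with the lowest level, at 4.24, 5.48, 4.86 and 4.77 TPM under tolvaptan and 4.29, 4.24, 4.12 and 3.89 TPM under dDAVP alone. It stayed under the limit of 10 TPM. In a limma fit of every gene detected in any library its log2 fold change was 0.18 (adjusted p = 0.394).

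The 250 bases before the start of Xbp1 are shown because Xbp1 had the smallest p of the members. Promoter sequences are RefSeq's for mouse build GRCm38.p6, read on the gene's strand, with position -1 the base before the start. They were searched on both strands for 5 motifs, written in letters with N for any base. The ER stress element (ERSE), bound by ATF6 with NF-Y, has CCAAT, 9 bases of any kind and CCACG. ERSE-II has ATTGG, 1 base of any kind and CCACG, so that both end in CCACG, with the CCAAT box or its complement before it. The UPR element (UPRE) was searched as TGACGTGG, the C/EBP-ATF response element (CARE) of ATF4 as TGATGNAA, and the cAMP response element (CRE) as TGACGTCA, which shares its first 6 bases with the UPRE. In the Xbp1 promoter, at chr11:5520391-5520640 on the plus strand, none of the 5 occurs, and no base is in capitals.
Xbp1: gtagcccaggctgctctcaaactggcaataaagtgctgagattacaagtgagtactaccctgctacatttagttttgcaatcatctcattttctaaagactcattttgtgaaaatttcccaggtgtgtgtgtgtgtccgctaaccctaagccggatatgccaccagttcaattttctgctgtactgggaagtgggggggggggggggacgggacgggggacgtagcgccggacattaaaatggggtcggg
A promoter of 300 bases (250 before the start and 50 after) was found for 31 of the 37 members. The others are Atf6, Derl1, Sil1, Hyou1, Manf and Sec61a1.

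Of the 11 genes of ER folding, 1 fell (9.09%), a share near the 6.10% of all genes. A negative log2 fold change was found for 10 of the 11 (median -0.10) and for 36.1% of all genes. After quantile normalization it was 9 of the 11 and 45.9% of all genes, with P4hb at 0.01, and after scaling to a common median 11 of the 11 and 48.5%, with Pdia6 at -0.04. The one that fell was Canx, calnexin, a membrane lectin that retains unfolded glycoproteins. Canx was at 422, 426, 397 and 370.0 TPM under tolvaptan, against 448, 469, 475 and 474 TPM under dDAVP alone, and every tolvaptan library was below. The means were 404 ± 25.7 and 466 ± 12.8 TPM (± SD, 4 libraries each), with a log2 fold change of -0.21 (SE 0.05, adjusted p = 0.0203 in limma). The call was lost in some fits that left out 1 library, where the log2 fold change stayed between -0.207 and -0.201. The adjusted p was 0.0582 without tolvaptan replicate 3 and 0.0623, 0.0657 and 0.0704 without dDAVP alone replicate 2, 3 or 4. Over 18 alternatives the adjusted p ranged from 0.0113 to 0.0773. Without tolvaptan replicate 4, the lowest library, it was 0.0134.

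Creld2, a secreted ER stress protein with disulfide isomerase activity, was the other folding gene without overlap. It was at 197, 201, 203 and 213 TPM under tolvaptan and 224, 247, 216 and 217 TPM under dDAVP alone, and missed the threshold (log2 fold change -0.15, adjusted p = 0.0786 in limma, range over alternatives 0.0278 to 0.218). Calr, calreticulin, the soluble partner of calnexin, averaged 498 ± 22.4 TPM under tolvaptan and 534 ± 31.4 TPM under dDAVP alone (± SD, 4 libraries each), a log2 fold change of -0.10 (95% interval -0.21 to 0.02). Hyou1, a nucleotide exchange factor of BiP, had the widest interval of the folding genes, -0.48 to 0.05 around -0.22, at 15.4 ± 2.64 TPM under tolvaptan and 17.9 ± 1.48 TPM under dDAVP alone (± SD, 4 libraries each). Sil1, the other exchange factor of BiP, had a log2 fold change of -0.08.

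None of the protein disulfide isomerases, which form and shuffle disulfide bonds, passed the test. Pdia3, which works with calnexin and calreticulin, had the highest level of the 37 members, at 599 ± 53.1 TPM under tolvaptan and 642 ± 21.6 TPM under dDAVP alone (± SD, 4 libraries each; log2 fold change -0.10, 95% interval -0.24 to 0.04). P4hb, Pdia4 and Pdia6 had log2 fold changes of -0.03, -0.02 and 0.01, with 95% intervals of -0.12 to 0.05, -0.14 to 0.09 and -0.09 to 0.10. Manf, a secreted ER stress protein, was at -0.05. For Sdf2l1, a cofactor of ER chaperones, the log2 fold change was -0.13 (95% interval -0.28 to 0.01). Over the 11 folding genes together, the summed level was 3184 to 3254 TPM under tolvaptan and 3335 to 3575 TPM under dDAVP alone. This is a description that was not tested, and the sum includes Canx (means 404 and 466 TPM), which fell.

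ER-associated degradation, which returns misfolded proteins to the cytosol for the proteasome, had 1 fall among 8 genes (12.5%), beside 6.10% of all genes. Its median log2 fold change was 0.00, beside 0.05 over all genes tested. Herpud1, the membrane scaffold of the HRD1 degradation complex, was at 254, 245, 250.02 and 279 TPM under tolvaptan, against 308, 300.3, 308 and 309 TPM under dDAVP alone. No library overlapped, and tolvaptan replicate 4 lay closest to the other group. The means were 257 ± 15.1 and 306 ± 4.08 TPM (± SD, 4 libraries each), a fall of 16.1% (log2 fold change -0.25, SE 0.05, adjusted p = 0.00503 in limma), which passed in 18 of 18 alternative fits. Sel1l, the partner of the HRD1 ligase in the same complex, did not pass (log2 fold change 0.05, 95% interval -0.05 to 0.15). The TPM ratio of Herpud1 to Sel1l was 1.44 to 1.61 under tolvaptan and 1.74 to 1.99 under dDAVP alone.

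Syvn1, the HRD1 ligase, averaged 44.4 ± 6.45 TPM under tolvaptan and 43.6 ± 5.28 TPM under dDAVP alone (± SD, 4 libraries each), a log2 fold change of 0.02 with a wide 95% interval of -0.22 to 0.27. The lectins Edem1 and Edem2, which hand over glycoproteins for degradation, were at -0.02 and 0.06. Of the Derlins, membrane proteins of the same route, Derl1 and Derl2 were at -0.02 and -0.16. Derl3 was at 7.28, 8.75, 7.68 and 10.95 TPM under tolvaptan and 6.72, 7.37, 6.08 and 6.12 TPM under dDAVP alone. Only tolvaptan replicate 4 carried it over the limit of 10 TPM, and its log2 fold change of 0.34 did not pass (adjusted p = 0.133 in limma). The translocon genes Sec61a1 and Sec61b, which form the channel for new proteins into the ER, had log2 fold changes of 0.00 and -0.04 (95% intervals -0.10 to 0.10 and -0.15 to 0.07).

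**Figure D2:**
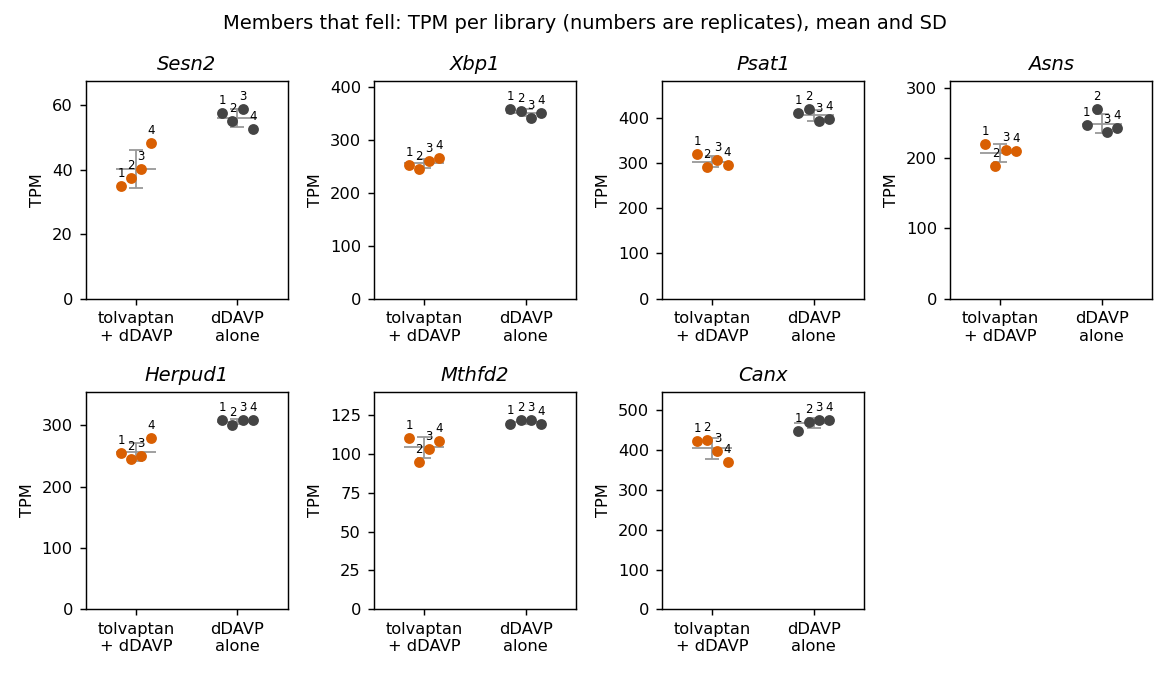
TPM (vertical axes, each starting at 0) of the 7 members that fell, 1 point a library, tolvaptan plus dDAVP left of dDAVP alone, with the mean and SD of each group. In all 7 panels the 4 tolvaptan libraries lie below the 4 under dDAVP alone, by the widest margin for Xbp1 and Psat1.

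The promoters of Herpud1 and Canx are shown because they are the only falling genes of this arm that hold a searched motif, with the motif in capitals. In Herpud1, at chr8:94386179-94386428 on the plus strand, the capitals mark a CARE on the opposite strand (positions -112 to -105) and an ERSE-II (-52 to -42). In Canx, at chr11:50325674-50325923 on the minus strand, they mark an ERSE (-145 to -127).
Herpud1: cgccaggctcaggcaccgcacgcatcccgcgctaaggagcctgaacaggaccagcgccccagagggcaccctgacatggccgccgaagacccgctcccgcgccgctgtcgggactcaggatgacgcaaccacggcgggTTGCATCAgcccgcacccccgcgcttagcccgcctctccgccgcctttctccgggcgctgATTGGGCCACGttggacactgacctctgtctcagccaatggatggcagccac
Canx: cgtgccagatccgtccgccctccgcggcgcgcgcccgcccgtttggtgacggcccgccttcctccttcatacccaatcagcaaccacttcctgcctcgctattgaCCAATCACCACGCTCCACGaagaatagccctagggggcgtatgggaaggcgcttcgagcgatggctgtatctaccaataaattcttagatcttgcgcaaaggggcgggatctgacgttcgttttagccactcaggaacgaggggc
An ERSE was found in 6 of the 31 members with a promoter (19.4%) and in 39 of all 32851 RefSeq promoters (0.119%). Here and below, members are counted by gene, 2 of them with 2 promoters, and the background by promoter. The members were picked as genes of these responses, so a share above the background is no independent support. The ERSE-II was in Herpud1 alone of the members and in 12 of all promoters (0.0365%). The other 5 members with an ERSE are Creld2, Pdia6, Calr, Syvn1 and Derl3, and none of them passed the test. Their sites are shown with 20 bases on each side, to set beside that of Canx, and a site that reads CGTGG first lies on the opposite strand.
Creld2: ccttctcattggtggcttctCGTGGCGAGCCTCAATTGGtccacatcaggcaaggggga
Pdia6: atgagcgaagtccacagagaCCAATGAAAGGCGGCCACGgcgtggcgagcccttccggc
Calr: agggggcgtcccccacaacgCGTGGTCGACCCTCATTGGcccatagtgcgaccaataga
Syvn1: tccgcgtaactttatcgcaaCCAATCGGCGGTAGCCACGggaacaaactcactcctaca
Derl3: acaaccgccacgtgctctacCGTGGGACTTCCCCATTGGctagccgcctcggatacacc
These stretches lie at chr15:88819500-88819558 for Creld2, chr12:17266471-17266529 for Pdia6, chr8:84847055-84847113 for Calr, chr19:6046512-6046570 for Syvn1 and chr10:75893222-75893280 for Derl3. Creld2, Pdia6, Syvn1 and Derl3 are on the plus strand and Calr on the minus strand. Among the 6 genes with an ERSE, log2 fold changes ran from -0.21 for Canx to 0.34 for Derl3. A match is a description of the letters and no evidence of binding.

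The factors and regulators of the ATF4 arm gave 1 fall among 6 genes (16.7%), where 6.10% of all genes fell. Atf4 itself was at 243, 237, 226 and 234 TPM under tolvaptan and 225, 232, 211 and 223 TPM under dDAVP alone, overlapping, with a log2 fold change of 0.08 (95% interval -0.02 to 0.17, adjusted p = 0.253 in limma). Ddit3, the factor CHOP of prolonged ER stress, was at 68.7, 66.1, 73.2 and 78.7 TPM under tolvaptan and 73.1, 74.3, 70.9 and 69.7 TPM under dDAVP alone. Its interval was -0.14 to 0.12 around -0.01. Neither mRNA passed the test.

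Sesn2, sestrin 2, a leucine sensor that restrains mTORC1 and a target of ATF4 and p53, had the largest fall of the members. Its level was 34.9, 37.4, 40.4 and 48.3 TPM under tolvaptan, against 57.7, 55.3, 58.8 and 52.8 TPM under dDAVP alone. The tolvaptan libraries were spread more widely, and replicate 4 came closest to the other group. Sesn2 averaged 40.3 ± 5.80 TPM under tolvaptan and 56.1 ± 2.67 TPM under dDAVP alone (± SD, 4 libraries each), a fall of 28.3% (log2 fold change -0.48, SE 0.09, adjusted p = 0.00556 in limma), and passed in 18 of 18 alternative fits.

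Trib3, a pseudokinase that CHOP and ATF4 induce, was at 36.0, 33.7, 39.6 and 57.9 TPM under tolvaptan and 40.5, 44.9, 40.6 and 36.1 TPM under dDAVP alone. Here 1 library set the value. The log2 fold change was 0.02 (adjusted p = 0.951 in limma) and -0.15 (adjusted p = 0.232) without tolvaptan replicate 4. Chac1, which degrades glutathione, had a log2 fold change of -0.11 (adjusted p = 0.191 in limma), and without that library the adjusted p was 0.0318 (range over alternatives 0.0318 to 0.388). Nupr1, a stress-induced chromatin protein, averaged 143 ± 16.0 TPM under tolvaptan and 130 ± 14.1 TPM under dDAVP alone (± SD, 4 libraries each), a log2 fold change of 0.14 (95% interval -0.07 to 0.34).

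Of the 6 genes of amino acid synthesis, 3 fell (Psat1, Asns and Mthfd2), where 6.10% of all genes did. The median log2 fold change was -0.18 over the 6 and 0.05 over all genes tested. Psat1, phosphoserine aminotransferase, catalyses the second step of serine synthesis. Psat1 was at 319.8, 291, 306 and 296 TPM under tolvaptan, against 411, 418, 393 and 397 TPM under dDAVP alone. The groups lay far apart relative to their spread, with means of 303 ± 12.7 and 405 ± 11.8 TPM (± SD, 4 libraries each). The fall was 25.1% (log2 fold change -0.42, SE 0.04, adjusted p = 0.000146 in limma), and it passed in 18 of 18 alternative fits.

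Phgdh, phosphoglycerate dehydrogenase, catalyses the step before Psat1 and stood on the other side. It was at 404, 426, 435 and 504 TPM under tolvaptan and 387, 401, 390.1 and 380.1 TPM under dDAVP alone, with every tolvaptan library above. Its log2 fold change of 0.18 (95% interval 0.04 to 0.32) did not pass (adjusted p = 0.0820 in limma). It passed without tolvaptan replicate 1 (0.0492) and without tolvaptan replicate 4 (0.0442), in a range over alternatives of 0.0430 to 0.251. Within a library, the TPM ratio of Psat1 to Phgdh was 0.791, 0.682, 0.704 and 0.588 under tolvaptan, against 1.06, 1.04, 1.01 and 1.04 under dDAVP alone. The ratio restates the values of both genes and was not tested. Psph, the phosphatase of the last step, was the lowest of the serine genes at 20.6 ± 2.82 TPM under tolvaptan and 22.8 ± 1.97 TPM under dDAVP alone (± SD, 4 libraries each), and its log2 fold change was -0.15 (95% interval -0.37 to 0.07). The 3 enzymes of serine synthesis therefore had values of both signs, and 1 of them passed.

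Asns, asparagine synthetase, is a textbook target of ATF4 in amino acid shortage. It was at 219.8, 188, 211 and 209 TPM under tolvaptan, against 247, 269, 237 and 242 TPM under dDAVP alone, with no overlap. Asns averaged 207 ± 13.3 TPM under tolvaptan and 249 ± 14.0 TPM under dDAVP alone (± SD, 4 libraries each), a fall of 16.8% (log2 fold change -0.27, SE 0.06, adjusted p = 0.0136 in limma). The call held without any 1 library. It was lost with no filter on low values (adjusted p = 0.0573 in limma) and with a replicate block (range over alternatives 0.00703 to 0.0584). The TPM ratio of Asns to Atf4 was 0.795 to 0.933 under tolvaptan and 1.09 to 1.16 under dDAVP alone.

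Mthfd2 and Shmt2 act in the mitochondrial one-carbon pathway, which takes its carbon from serine. Mthfd2 was at 110.2, 94.4, 103 and 108 TPM under tolvaptan, against 119, 122, 121 and 119 TPM under dDAVP alone, again without overlap. The log2 fold change was -0.21 (SE 0.05, adjusted p = 0.0239 in limma). Without tolvaptan replicate 3 the adjusted p was 0.0581, and without dDAVP alone replicate 1, 2, 3 or 4 it was 0.0614, 0.0678, 0.0677 and 0.0615 (range over alternatives 0.0113 to 0.0785). Shmt2, which feeds that pathway, averaged 282 ± 27.1 TPM under tolvaptan and 276 ± 16.9 TPM under dDAVP alone (± SD, 4 libraries each; log2 fold change 0.03, 95% interval -0.13 to 0.19).

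The promoter of Asns is shown because it is the only one among the 4 falling genes of the ATF4 arm with a searched motif. It lies at chr6:7693210-7693459 on the minus strand, and the capitals mark a CARE at positions -23 to -16.
Asns: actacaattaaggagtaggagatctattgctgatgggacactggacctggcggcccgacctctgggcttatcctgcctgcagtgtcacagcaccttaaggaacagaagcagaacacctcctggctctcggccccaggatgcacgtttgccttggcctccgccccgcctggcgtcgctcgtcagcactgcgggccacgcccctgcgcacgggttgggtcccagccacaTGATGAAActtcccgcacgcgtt
A CARE was found in 5 members (16.1% of 31) and in 1304 of all 32851 promoters (3.97%). Beside Herpud1 and Asns, which fell, the 5 include Trib3, Chac1 and Nupr1, which did not pass. The sites of Chac1 (chr2:119351029-119351076, plus strand) and Nupr1 (chr7:126625553-126625600, minus strand) have the same 8 bases as that of Herpud1, all on the opposite strand, and are shown with 20 bases on each side.
Chac1: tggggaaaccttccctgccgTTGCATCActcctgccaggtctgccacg
Nupr1: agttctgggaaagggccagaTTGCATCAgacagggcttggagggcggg
In Trib3 the match lies 15 to 22 bases after the start. The promoters of Xbp1, Psat1, Sesn2 and Mthfd2 hold none of the 5 motifs in this window. The UPRE and the CRE were in 0 of the 31 members, and in 0.676% and 1.79% of all promoters.

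**Figure D3:**
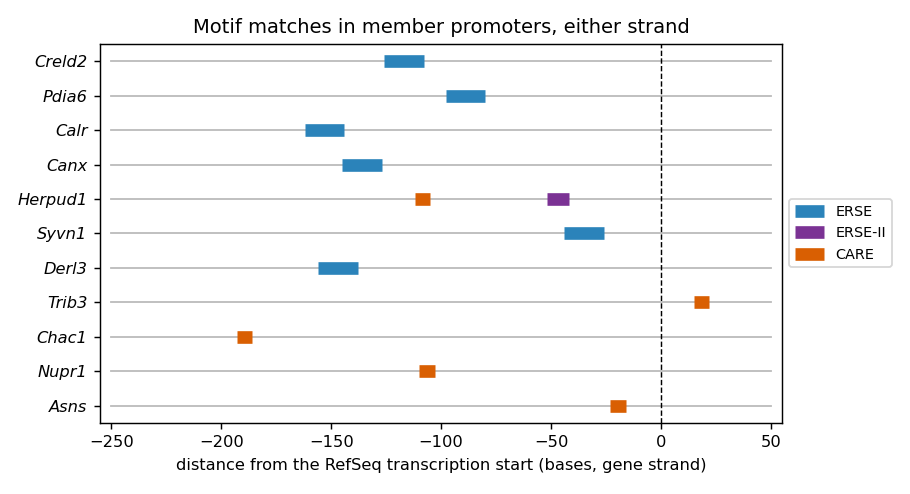
Distance of each motif from the transcription start (horizontal axis, bases) in the 11 members that hold one, 1 row a gene, coloured by motif, with the searched stretch as a line. The ERSE matches lie between -162 and -26 and the CARE matches between -193 and 22, in genes that fell and in genes that did not pass.

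Further genes of the same pathways, 102 that are not members, were listed by role to set the members beside their neighbours. Of the 95 tested, 5 fell (5.26%) and 3 rose (3.16%), where 6.10% and 10% of all genes did, and the median log2 fold change was -0.02. The number that fell depended on the setting, with 10 of the 95 after scaling to a common median and 11 without tolvaptan replicate 4. Atf3, a stress-induced factor of the ATF4 network, rose, and was the only 1 of 7 partner factors of ATF4 tested that passed. It was at 18.2, 16.5, 19.5 and 20.8 TPM under tolvaptan, against 13.1, 12.9, 12.6 and 12.3 TPM under dDAVP alone (log2 fold change 0.52, SE 0.08, adjusted p = 0.00186 in limma). Wfs1, an ER membrane protein that restrains ATF6, averaged 39.9 ± 3.08 TPM under tolvaptan and 31.8 ± 1.29 TPM under dDAVP alone (± SD, 4 libraries each), and rose by 0.32 on the log2 scale (adjusted p = 0.00713 in limma). Both passed without any 1 library. Of the other partner factors, Cebpb and Gdf15 did not pass in the main fit (adjusted p = 0.293 and 0.542 in limma). Without tolvaptan replicate 4 they were lower (log2 fold change -0.55 and -0.26, adjusted p = 0.00199 and 0.00307 in limma).

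Among 12 aminoacyl-tRNA synthetases, which charge tRNAs with their amino acids, 3 fell, where 6.10% of all genes did, and 11 had a negative log2 fold change, where 36.1% of all genes did (48.5% of all genes and 12 of the 12 after scaling to a common median). Eprs, for glutamate and proline, averaged 180.3 ± 6.19 TPM under tolvaptan and 203 ± 5.04 TPM under dDAVP alone (± SD, 4 libraries each; log2 fold change -0.17, adjusted p = 0.0211 in limma). Nars (asparagine) and Tars (threonine) had log2 fold changes of -0.21 and -0.13 with adjusted p of 0.0448 and 0.0470. Those of Sec11c, a signal peptidase subunit, and Ppp1cb, a catalytic subunit of protein phosphatase 1, were -0.28 and -0.25 (0.0316 and 0.0470), and Shmt1, the cytosolic counterpart of Shmt2, was at 0.15 (0.0472). Nars passed in 1 of the 8 fits that leave out a library, Tars, Sec11c, Ppp1cb and Shmt1 in 2 each and Eprs in 6, with adjusted p in those fits of up to 0.146. None of the other ER chaperones and oxidoreductases (13 tested) or of the amino acid transporters (6 tested) passed. Hspa5, the most used marker of the unfolded protein response, had a log2 fold change of -0.02 (adjusted p = 0.748 in limma), and Hsp90b1, the ER chaperone GRP94, of -0.12 (adjusted p = 0.179).

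**Figure D4:**
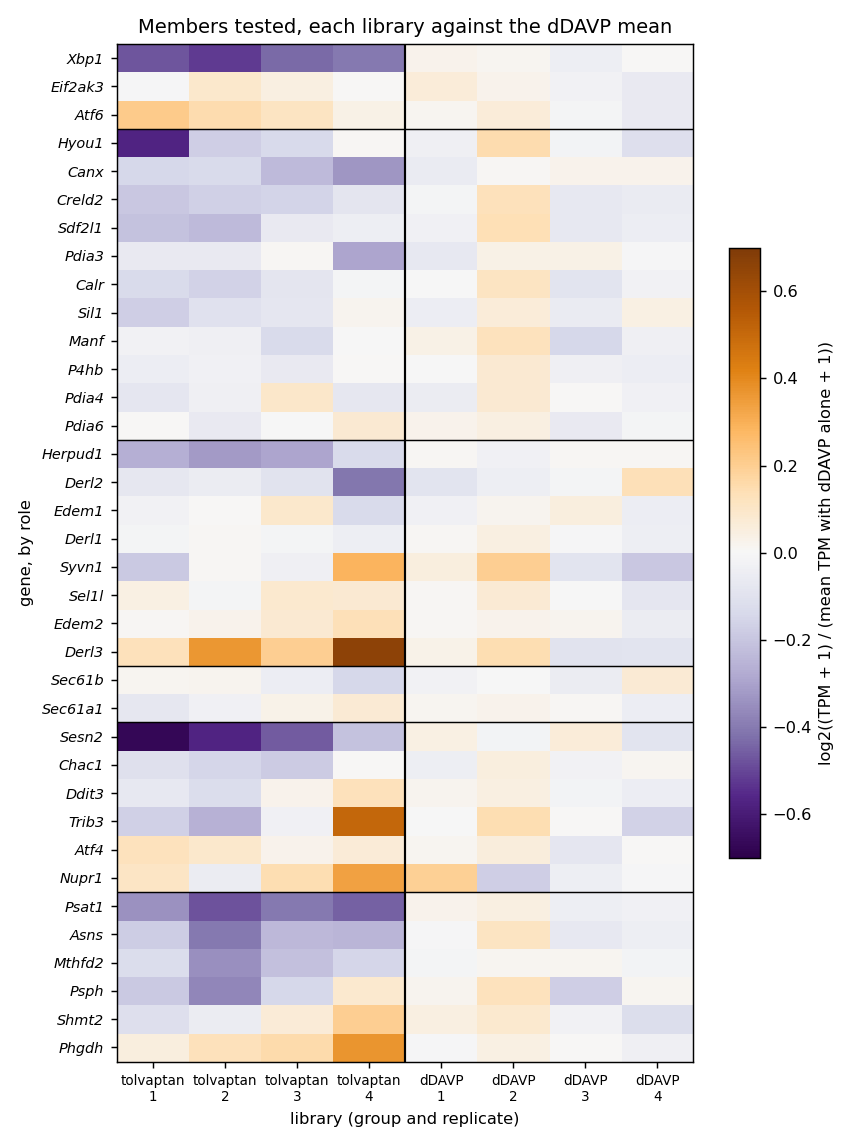
Each of the 36 members tested (rows, by role) in each library (columns) as log2(TPM + 1) minus that of the mean under dDAVP alone (colour scale), under tolvaptan plus dDAVP replicates 1 to 4 left of dDAVP alone replicates 1 to 4. Xbp1, Herpud1, Sesn2, Psat1, Asns, Canx and Mthfd2 are lower in each of the 4 tolvaptan libraries, and tolvaptan replicate 4 is higher than the other tolvaptan libraries in many rows, Trib3 and Derl3 among them.

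Library depth is unknown, since every library sums to the same total (1000000 TPM). Tolvaptan replicate 4 stood farthest from its group, with a root mean square deviation of 0.334 log2 units over all genes tested, against 0.273 to 0.294 in the other tolvaptan libraries and 0.251 to 0.264 under dDAVP alone. It was the highest tolvaptan library for 22 of the 36 members (61.1%) and for 8 of 12 in the ATF4 arm, against 40.1% of all genes. It was the lowest for 7 of the 36 members and for 0 of 12 in the ATF4 arm, against 34.6% of all genes. Without it, 9 members were lower (Creld2 and Chac1 added to the 7) and 1 higher (Phgdh), beside 8.39% of all genes lower and 14.1% higher. The collecting duct markers were present (7 of 7 over 1 TPM, summed 5994 to 7205 TPM under tolvaptan and 10823 to 11467 TPM under dDAVP alone), and the water channel gene Aqp2 averaged 272 ± 46.3 TPM under tolvaptan and 3050 ± 164 TPM under dDAVP alone (± SD, 4 libraries each). Markers of intercalated cells, fibroblasts and endothelium each summed to at most 1.21 TPM under tolvaptan and 1.30 TPM under dDAVP alone. Of the proximal tubule and leukocyte markers, only Lrp2 (11.2 and 8.17 TPM, tolvaptan and dDAVP alone) and Cd68 (5.78 and 5.98 TPM) passed 1 TPM, and the part of the proximal tubule marker in the results was not tested.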

How the data were processed

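RNA of mpkCCD cells (8 libraries) was sequenced from SMARTer V4 and Nextera XT libraries, paired-end and without strand. STAR served the authors for alignment, against Ensembl release 106 of mouse, and RSEM for quantification, and the table they deposited gives 1 TPM a gene and library. Tool versions are not given in the sources used here. Reads of overlapping or antisense genes cannot be told apart, and TPM keep no depth, so no counting intervals are given. Groups came from the sample labels and doses from the results section of the study. The labels do not say whether replicates were separate cultures, so the p-values cover only the variation among these libraries, which may be technical.

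The count test that the study's methods name needs counts. The TPM were instead compared as log2(TPM + 1) with limma 3.58.1 in R 4.3.3 (trend on mean expression, unpaired, 2-sided), over the 9943 genes with a maximum TPM over 10, with Benjamini-Hochberg adjustment over these. The study names the same TPM limit, but the number of genes it kept was another, and the filter on counts before its own test needs counts and was not applied. A fold change on this scale understates that of low genes. Members, lists and tests were chosen with earlier results of these data known. Every member was to be named, with values per library for those past an adjusted p of 0.05 and for Xbp1, Atf6, Ern1, Eif2ak3, Atf4, Ddit3 and Trib3, and of the further pathway genes up to 4 a role past 0.05. Creld2, Derl3, Phgdh, Hspa5, Hsp90b1, Cebpb, Gdf15 and the ratios between genes were picked after their values were seen. Of the 102 further genes, 12 were matched by older symbols. The table does not show whether a near-identical gene copy took reads. The 18 alternatives changed the pseudocount, filter, scaling, variance model or block, or left out a library. The procedure was tested on simulated data with independent noise. The simulated shifts were all larger than the falls of Herpud1, Asns, Canx and Mthfd2, so that test does not cover falls of their size. Motifs were searched with Python 3.11.15 in RefSeq promoters, and figures drawn with matplotlib 3.10.9.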

Additional observations from a re-analysis of the deposited data

Results flagged for a closer look

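In each group of 4 libraries, the distance of the highest and the lowest library to its neighbour was set against the whole range (Dixon's test at the 95% level). Over the 74 groups of members, 3 groups had a library that stood apart, and chance gives about 1 in 20. Derl2, a Derlin of ER-associated degradation, was at 57.3 TPM in tolvaptan replicate 4, while the other tolvaptan libraries lay between 71.5 and 73.6 TPM. Herpud1 was at 300.29 TPM in dDAVP alone replicate 2, close below the 308.3 to 308.65 TPM of the others, which are unusually near each other. Sdf2l1, a chaperone cofactor, was at 133.28 TPM in dDAVP alone replicate 2, while the other libraries with dDAVP alone lay between 115 and 118 TPM.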

How the results depend on the processing

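Of the 7 falls, Xbp1, Psat1, Herpud1 and Sesn2 passed in all 18 alternatives, and 4 members passed in the fit with no filter on low values and with a replicate block, where Asns, Canx and Mthfd2 were lost and 2 genes of the ATF4 arm were left. Canx was also lost with quantile normalization. With 1 library left out, 5 to 9 members were lower and 0 to 1 higher, in the ATF4 arm 3 to 5 lower and 0 to 1 higher. The 1 member higher was Phgdh, also with quantile normalization (1 member, 1 in the ATF4 arm). The number of the further pathway genes that fell, 5, was 3 with a maximum TPM over 1, with quantile normalization and with no variance trend, 10 with a common median, 0 with no filter and with the block, and 1 to 11 with 1 library left out. Those that rose, 3, were 5 with a pseudocount of 0.1 and 2 to 7 with 1 library left out. Over all genes, 607 lower and 994 higher became 396 and 515 with the block, 422 and 498 with no filter, 825 and 576 with a common median and 680 and 612 with quantile normalization, which moved the median of all genes to 0.0059 and 0.013. Replicates of the same number did not deviate together (correlations between -0.073 and -0.0046). The labels do not say whether they were paired, and these correlations cannot show it.

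Values that changed sign were of genes that did not pass and whose log2 fold change was near 0 in the main fit. With a common median they were Eif2ak3 -0.0109, Pdia6 -0.0399, Syvn1 -0.0204, Sec61a1 -0.0434, Trib3 -0.0287 and Shmt2 -0.0169, and with quantile normalization Eif2ak3 -0.048, P4hb 0.0108, Syvn1 -0.0286 and Trib3 -0.0352. With 1 library left out, log2 fold changes ran from -0.0617 to 0.0049 for Pdia4, -0.0198 to 0.0278 for Pdia6, -0.0523 to 0.0215 for Edem1, -0.0651 to 0.0938 for Syvn1, -0.0225 to 0.0261 for Sec61a1, -0.0547 to 0.0283 for Ddit3, -0.1474 to 0.1065 for Trib3 and -0.0289 to 0.0739 for Shmt2.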
